A study of Mus musculus with 12 samples.

Results

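The genes described here encode the 3 large enzyme families of phase II conjugation: the UDP-glucuronosyltransferases (Ugt), the cytosolic sulfotransferases (Sult) and the glutathione S-transferases (Gst). Protein-coding genes were taken by symbol from the RefSeq annotation of the mouse genome (assembly GRCm38.p6, the mm10 build), which gave 64 of 21900 genes: 9 Ugt1a, 10 Ugt2, 2 Ugt3, 21 Sult and 22 Gst genes. Genes of 1 family that lay within 200 kb of each other were treated as 1 cluster, giving 21 clusters, of which 9 held a single gene. A CTCF site was a stretch covered by overlapping peaks of any of the 6 deposited lists, and a site belonged to a gene when it overlapped the gene body or the 5 kb on either side. By this rule 118 of 76061 sites belonged to the conjugation genes, against 55013 that lay near any protein-coding gene.

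CTCF was immunoprecipitated from whole mouse livers and the bound DNA was sequenced (ChIP-seq). All animals were wild-type (genotype WT) males of strain C57BL6/Ncrl, aged 3 to 4 months and kept on normal chow. The fed group (3 libraries) had free access to food and was sampled at ZT16, that is 16 h after lights on, whereas the starved group (3 libraries) had gone 24 h without food and was sampled at ZT13. Feeding state and time of day therefore differ together and cannot be told apart. One Diagenode CTCF antibody lot was used throughout. Whether 1 mouse or several gave the 3 libraries of a group is not stated, so the spread between them may be technical. Whole liver holds several cell types, and in such a sample fewer cells carrying a site cannot be told apart from less binding in each cell. Peak lists hold no expression, so the tissue label could not be checked against marker genes.

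There were 56103, 49030 and 74950 peaks in the fed lists, and 30752, 23926 and 29866 in the starved lists. The fed 3 list was the longest and the starved 2 list the shortest. Read depth is unknown, and both depth and enrichment quality affect how many peaks are called, as does binding itself. The score attached to each peak is the authors' own. It was used here as a percentile rank within its list, where 100 is the best-scored peak. Ranks from lists of different length do not show a change, so fed and starved ranks were compared only in lists cut to the same length.

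CTCF is a zinc-finger protein that binds a long, well-conserved DNA motif and, with cohesin, anchors chromatin loops and separates regulatory domains. Ugt enzymes sit in the endoplasmic reticulum and attach glucuronic acid, Sult enzymes in the cytosol attach a sulfonate group, and Gst enzymes attach glutathione. In the liver these reactions make bilirubin, bile acids, steroids, phenols and drugs more soluble, so that they can be exported into bile or blood. Many of the genes arose by duplication and stand in tandem clusters of close relatives, in which short reads are hard to place. How reads that map to more than 1 place were treated was not given in the sources used here, so a missing call near such paralogs is uncertain.

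Promoter sequence was read from the RefSeq promoter windows (250 bases before a start and 50 after it, mm10), which covered 56 of the 64 genes with 67 windows. A CTCF site lay over 22 of these windows, from 15 genes (32.8%), against 34.9% of the 21263 windows of all protein-coding genes. The windows were searched on both strands for the CTCF core, written as CCA, 2 unspecified bases, AG, 2 unspecified bases and GGC, which has 8 fixed letters among 12. No other motif was searched. An exact match was found in 2 windows of the conjugation genes (2.99%), against 2.34% of all windows. Both were Gstm windows and both lay under a site called in all 6 libraries. Of the windows under such a site, 2 of 7 from the conjugation genes held the core (28.6%), against 8.67% of 2052 from all genes, and the 7 come from 3 genes. A match with at most 1 fixed letter different was present in 20.9% of the conjugation gene windows and in 32.5% of all windows. The sequences below were chosen because they show the 2 exact matches, the closest match under the strongest start-site peak, and 2 promoters whose site was called in all 3 fed but not in all starved libraries. They are written 5′ to 3′ on the strand of the gene, from outside the annotated body of that gene except for the Gstm6 inner start, and the capitals mark the 12 bases closest to the core on either strand.
Gstm1, chr3:108017974-108018223, minus strand: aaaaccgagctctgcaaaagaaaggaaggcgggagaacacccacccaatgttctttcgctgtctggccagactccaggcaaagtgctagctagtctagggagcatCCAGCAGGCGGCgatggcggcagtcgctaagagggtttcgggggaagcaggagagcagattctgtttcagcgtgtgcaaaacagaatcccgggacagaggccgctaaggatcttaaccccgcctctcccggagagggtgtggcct
Gstm6 inner start, chr3:107943878-107943907, minus strand: cctgagaatCCAGCAGGGGGCagatggaag
Gstm6 outer start, chr3:107953642-107953716, minus strand: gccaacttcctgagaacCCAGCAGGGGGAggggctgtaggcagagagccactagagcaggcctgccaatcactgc
Gstp1, chr19:4037913-4038162, minus strand: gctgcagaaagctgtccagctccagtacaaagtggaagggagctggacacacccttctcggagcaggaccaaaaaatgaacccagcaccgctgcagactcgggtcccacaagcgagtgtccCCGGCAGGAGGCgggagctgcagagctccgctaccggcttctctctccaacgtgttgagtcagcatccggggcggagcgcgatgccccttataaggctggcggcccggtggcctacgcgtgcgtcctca
Ugt1a5, chr1:88165762-88166011, plus strand: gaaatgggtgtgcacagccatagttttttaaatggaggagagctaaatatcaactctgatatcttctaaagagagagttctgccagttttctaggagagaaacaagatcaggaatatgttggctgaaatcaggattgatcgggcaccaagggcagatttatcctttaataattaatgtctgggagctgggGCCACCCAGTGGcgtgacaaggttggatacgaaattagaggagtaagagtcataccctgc

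Within the Gstm cluster the capitals of the 3 sequences are nearly alike, in part because windows and bases were chosen for closeness to the core. Counted from 1 at the 5′ end of the 12 bases and with the Gstm6 inner match as the reference, Gstm1 differs by G9C, at a position where the core allows any base, and the Gstm6 outer start differs by C12A, which is a fixed position of the core. The Gstm1 match begins 145 bases before its start and the Gstm6 inner match 164 bases before its start. The Gstp1 match, 129 bases before the start, and the Ugt1a5 match, on the opposite strand 60 bases before the start, each differ from the core at 1 fixed letter. All 5 stretches of capitals lay inside the called site. This did not hold for every window over a site. For Gstz1, Gstm2 and an inner start each of Sult2b1 and Sult1a1, the closest 12 bases before the start lay outside it. A match is a description of letters only, and sequence under sites outside the promoter windows was not analysed here.

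Across the conjugation genes as a whole, the fed libraries called 86, 79 and 117 sites and the starved libraries 51, 36 and 46. Every starved library was below every fed library, with means of 94.0 ± 20.2 (SD, n = 3) fed and 44.3 ± 7.64 (SD, n = 3) starved. The starved to fed ratio of 0.472 was close to that of all peaks (0.469) and of sites near any protein-coding gene (0.445). The conjugation genes took 0.161 ± 0.00514% of each fed library's sites and 0.162 ± 0.00851% of each starved library's (SD, n = 3 each), so their share differed by less than the spread between libraries. Of the 118 sites, 26 were called in the fed 3 list alone, all ranked at or below 40.2 there, and 92 sites were left without that list.

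At least 1 site was called near 50 of the 64 genes (78.1%), against 74.5% of all protein-coding genes. The 14 genes without a call were Gstk1, Gstm5, Sult1c1, Sult2a2, Sult2a3, Sult2a4, Sult2a5, Sult2a7, Sult3a1, Ugt2a2, Ugt2b1, Ugt2b35, Ugt2b37 and Ugt2b38. Most of them lie in clusters of near relatives. A site called in all 6 libraries lay near 27 genes (42.2%), against 47.7% of all protein-coding genes, and a fed-only site (3 fed calls, no starved call) lay near 21 genes (32.8%), against 32.8%. The exact binomial 95% intervals of these 2 shares, 29.9% to 55.2% and 21.6% to 45.7%, both held the share over all genes. They cover counting error only, and neighbouring genes share sites.

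By class, 32 of the 118 sites (27.1%) were called in all 6 libraries, against 27.0% of sites near protein-coding genes and 29.1% of all sites. A further 20 sites were called in all 3 fed and in 1 or 2 starved libraries, 23 were fed-only, 40 in 1 or 2 fed and no starved library, and 3 in other combinations. Of the 75 sites called in all 3 fed libraries, 23 had no starved call (30.7%, exact binomial 95% interval 20.5% to 42.4%), against 29.8% of such sites near all protein-coding genes and 29.1% of such sites genome-wide. All 3 starved libraries held 32 of the 75 (42.7%), against 14829 of 31258 such sites near all protein-coding genes and 49.3% genome-wide. Each site that all 3 starved libraries called was also called in all 3 fed libraries. Of the 20 partly called sites, 16 lacked the call in starved 2 (80%), 6 in starved 3 (30%) and 4 in starved 1 (20%). Of the 7125 such sites near protein-coding genes, 90.6%, 34.9% and 25.4% lacked these calls.

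The classes also differed in fed rank, which comes from the same peak calls as the classes. The 32 sites kept in all 6 libraries had mean fed ranks from 58.5 to 98.5 (median 78.4), and the 23 fed-only sites from 19.2 to 58.0 (median 33.4), so the 2 ranges did not overlap among these genes. The 20 partly called sites, from 27.9 to 70.6 (median 47.7), overlapped both. Near all protein-coding genes, sites of all 6 libraries reached from 29.5 to 99.97 and fed-only sites from 0.467 to 69.9, and these did overlap. Their medians, 81.4 and 32.5, were close to those of the conjugation genes. These ranges cover 14829 and 9304 sites, and a range widens with the number of sites. The lack of overlap at the conjugation genes therefore cannot be read as a sharper split. Sites called in all 6 libraries were also wider, with a median of 794 bp against 352 bp for the fed-only sites, as they were near all protein-coding genes (847 bp and 361 bp). A site is the union of its peaks, so its width also grows with the number of lists that hold it. The plot of fed rank against starved calls shows every site.

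**Figure D1:**
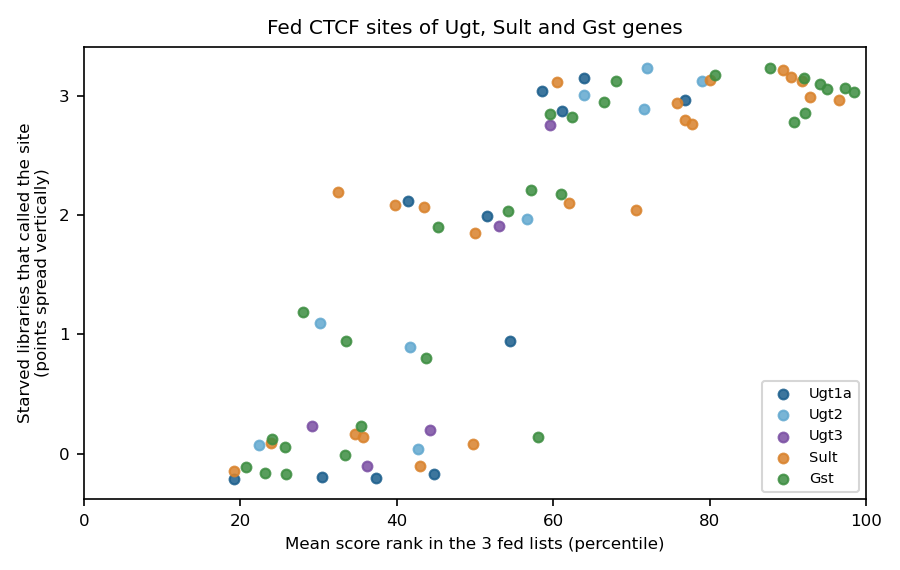
Each point is 1 of the 75 CTCF sites called in all 3 fed libraries near a Ugt, Sult or Gst gene. The horizontal axis gives its mean score rank in the 3 fed lists (percentile), the vertical axis the number of starved libraries that called it, with points spread vertically for legibility, and colours give the family. The 23 sites with no starved call sit between 19.2 and 58.0 and the 32 sites called in all 3 starved libraries between 58.5 and 98.5.

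Relative to the length of the windows searched, the conjugation genes held 6.65 sites per 100 kb, against 4.65 for all protein-coding genes, and 4.23 against 2.64 when only sites of all 3 fed libraries were counted. The families differed: 12.4 per 100 kb for Gst, 8.59 for Ugt1a, 5.52 for Ugt3, 4.52 for Ugt2 and 4.21 for Sult. Gst genes are short, with a median length of 7.47 kb against 17.1 kb over all protein-coding genes, and no adjustment for gene length was made. Of the 118 sites, 81 overlapped the body of a conjugation gene and 37 lay outside it within 5 kb. Those inside included 23 of the 32 sites of all 6 libraries and 18 of the 23 fed-only sites. Starts and ends could be told apart only for the 56 genes with a promoter window, which gives the strand. Among these, the outer start, at the edge of the gene body, was covered by 10 sites. They were those of Ugt1a5, Gstt1, Gstz1, Gstp1, Gsto2, Gstm7, Gstm6, Gstm1, Sult2b1 and Sult1a1. Inner starts were left out of this count, and some of them also lay in a site, such as those of Gstm6, Gstt1, Gstm4 and Sult5a1. One site covered the end at the edge of a gene body, that of Sult6b2. A site at Gstt2 (chr10:75836972-75837678) also covered an edge of its gene body, but whether this is the start or the end is unknown. Exons, introns and UTRs were not resolved because the annotation used gives gene bodies only.

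Counted per cluster, every starved library had fewer sites than every fed library in 9 of the 20 clusters with a site. They were the Ugt1a, Ugt2, Ugt3, Gstm, Gstt and Gsto clusters, Sult2b1, Sult1a1 and Sult4a1. Counted per gene, 20 of the 50 genes with a site met this rule (40%), against 45.4% of the 16322 protein-coding genes with a site, and no gene of either set had more sites in every starved library. Of the 20, 7 were Ugt1a genes, which share sites. An exact two-sided permutation test over the 20 labellings of the libraries cannot go below p = 0.1 with 3 against 3, and the lowest adjusted p (Benjamini-Hochberg over 16322 genes) was 0.220, so no gene passed. Without the fed 3 list the counts were 20 of 47 genes (42.6%), 48.2% of all genes and again 9 clusters.

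**Figure D2:**
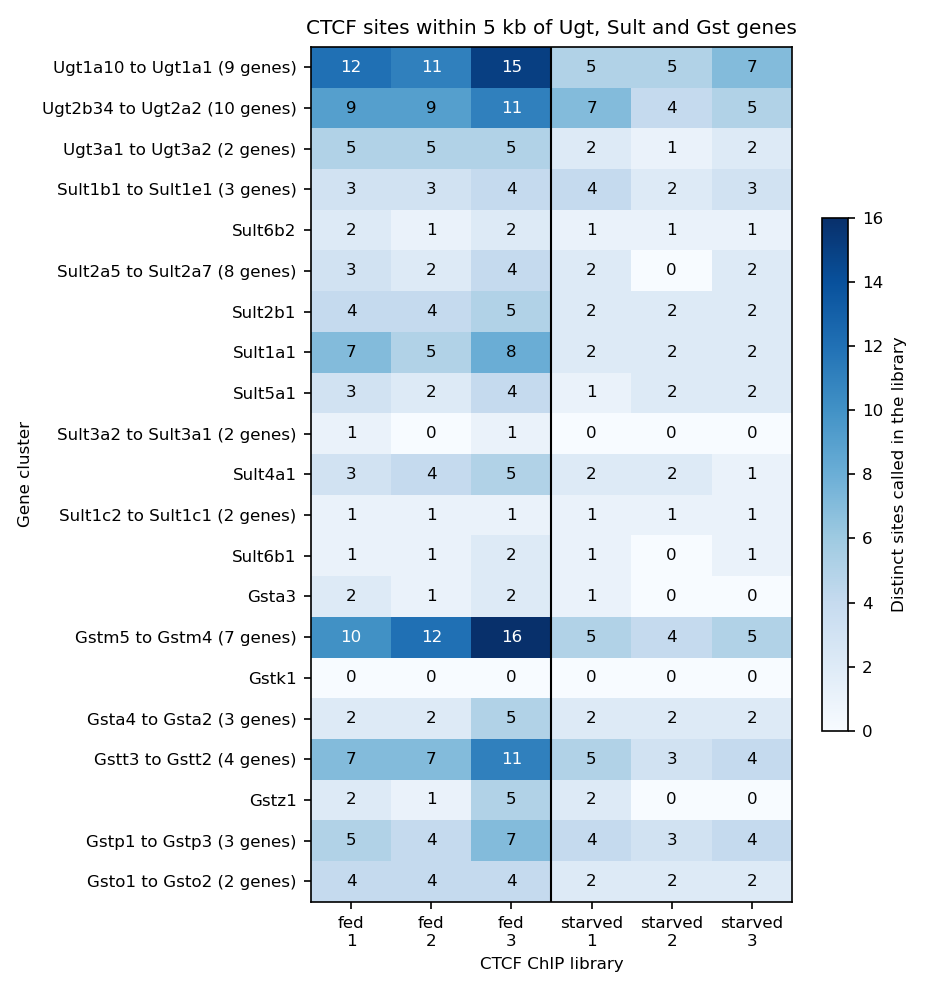
Rows are the 21 gene clusters and columns the 6 CTCF ChIP libraries. Numbers and shading give the distinct sites called within 5 kb of the genes of the cluster. In the Ugt1a row the fed libraries hold 12, 11 and 15 sites and the starved libraries 5, 5 and 7, and in the Gstm row 10, 12 and 16 against 5, 4 and 5.

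Glucuronidation genes were led by the Ugt1a locus on chromosome 1, where 9 genes, each with its own first exon, run into a shared 3′ part. Because the gene bodies overlap, 1 site can belong to up to 9 of them. The locus spans 165 kb and held 15 sites, called 12, 11 and 15 times in the fed libraries and 5, 5 and 7 times in the starved ones. The groups did not overlap. Of the 15 sites, 4 were called in all 6 libraries, 3 in all fed and some starved, 4 were fed-only, and 4 in 1 or 2 fed libraries only.

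The strongest Ugt1a site, chr1:88143763-88144906, lay in the bodies of Ugt1a10, Ugt1a9, Ugt1a8, Ugt1a7c, Ugt1a6b and Ugt1a6a, with fed ranks of 73.0, 72.0 and 85.6. The other 3 sites called in all 6 libraries had mean fed ranks of 64.0, 61.1 and 58.5, all below the strongest sites of the Gst and Sult genes described below. The 4 fed-only sites had mean fed ranks of 44.8, 37.4, 30.5 and 19.2 and stood between or beside the shared ones. Ugt1a1, the enzyme that conjugates bilirubin, had a single site, chr1:88217189-88217585, with fed ranks of 57.9, 39.7 and 65.7. Among the starved lists it was called in starved 3 alone, at rank 18.1. The site over the start of Ugt1a5, whose promoter is printed above, had fed ranks of 44.9, 27.7 and 51.7 and was called in starved 1 (30.5) and starved 3 (23.3) but not in starved 2. The nearest sites of all 6 libraries outside the locus lay 118 kb below and 57.0 kb above it.

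**Figure D3:**
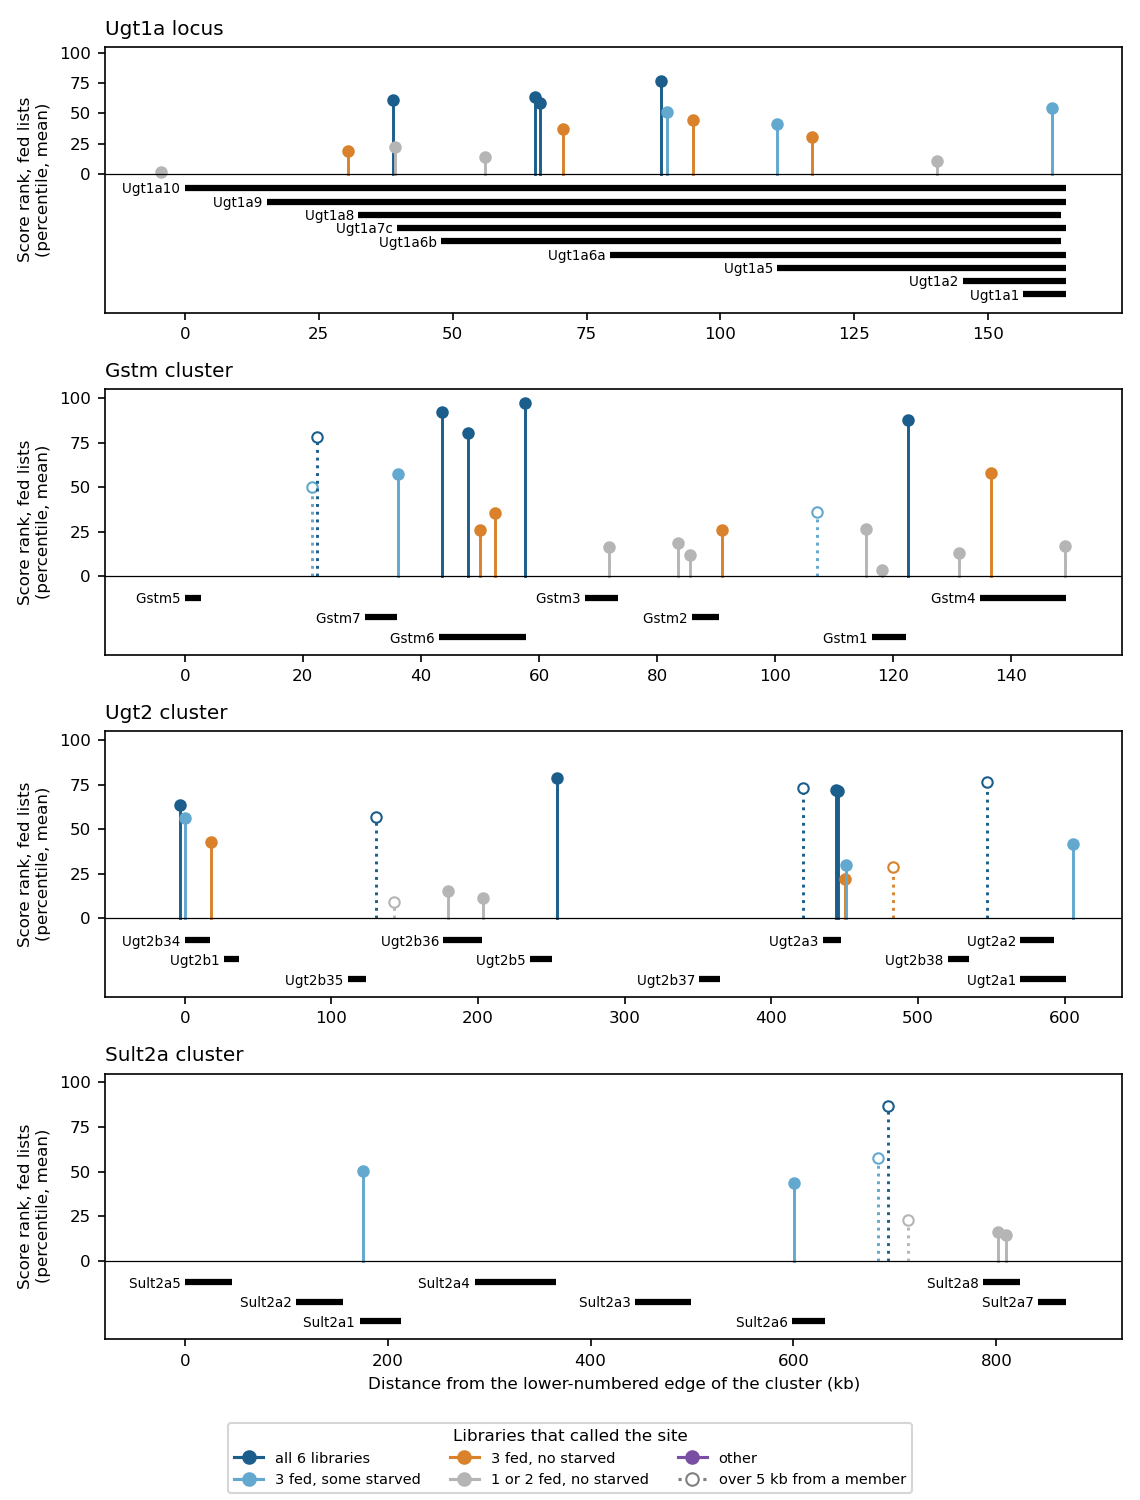
Each panel shows 1 cluster, with distance from its lower-numbered edge (kb) on the horizontal axis, gene bodies as black bars and CTCF sites as pins whose height is the mean score rank in the fed lists that called the site (percentile). Colours give the libraries that called the site, and open pins on dotted stems are sites over 5 kb from any gene of the family. Shared sites stand along the Ugt1a and Gstm clusters, while the Sult2a cluster has 1 site of all 6 libraries in its span and that site is over 5 kb from its genes.

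The Ugt2 cluster on chromosome 5, whose enzymes conjugate steroids and many drugs, held 11 sites near 5 of its 10 genes. They were called 9, 9 and 11 times in the fed libraries and 7, 4 and 5 times in the starved ones. The 4 sites of all 6 libraries belonged to Ugt2b5, Ugt2a3 (2 sites) and Ugt2b34. The Ugt2b5 site, chr5:87142972-87143616, had fed ranks of 84.5, 70.8 and 81.8. The pair in the body of Ugt2a3 had mean fed ranks of 72.0 and 71.7, and the Ugt2b34 site had 63.9. Both fed-only sites of the cluster were modest in rank, 42.8 near Ugt2b34 and 22.3 near Ugt2a3. Ugt2b1, a major hepatic member, had no called site, nor had Ugt2b35, Ugt2b37, Ugt2b38 and Ugt2a2.

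Ugt3a1 and Ugt3a2, which use sugars other than glucuronic acid, shared a small cluster on chromosome 15 with 5 sites. All 5 were called in each fed library, and the starved libraries called 2, 1 and 2 of them. The single site of all 6 libraries lay in Ugt3a1 (chr15:9289529-9290047), with fed ranks of 59.6, 59.0 and 60.2. Of the 3 fed-only sites, 2 lay in Ugt3a2 (mean fed ranks 44.2 and 36.1) and 1 in Ugt3a1 (29.2).

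Among the sulfotransferases, Sult1a1, the phenol sulfotransferase, had the densest set of sites, 29.0 per 100 kb. Its 8 sites were called 7, 5 and 8 times in the fed libraries and 2, 2 and 2 times in the starved ones. The starved calls were in each library the same pair outside the gene, chr7:126693075-126694117 and chr7:126694928-126696430. The outer one had fed ranks of 99.1, 92.3 and 98.4 and starved ranks of 98.97, 97.0 and 99.8. The inner one had a mean fed rank of 90.4. The 6 sites closer to the gene body were all without a starved call, among them a fed-only site over the gene start (chr7:126690018-126690477) with fed ranks of 50.5, 38.1 and 60.5. The other fed-only sites of Sult1a1 had mean fed ranks of 34.7 and 23.9.

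Sult2b1, which sulfonates cholesterol, showed a like mixture of classes. It had 5 sites, called 4, 4 and 5 times fed and 2, 2 and 2 times starved. Its strongest site, chr7:45739055-45740184 inside the gene, had fed ranks of 84.7, 94.9 and 95.9 and was called in all 6 libraries, as was a second site inside the gene (mean fed rank 60.5). The site over its start (chr7:45759451-45759720) was fed-only, with fed ranks of 10.8, 12.4 and 34.4, and so was a site inside the gene with a mean fed rank of 43.0. Sult4a1, known mainly from brain, had 3, 4 and 5 fed calls and 2, 2 and 1 starved calls. Its leading site (chr15:84073407-84074557), outside the gene, had fed ranks of 88.3, 91.9 and 98.3, and a site beside it with a mean fed rank of 35.7 was fed-only.

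The remaining Sult clusters overlapped between groups. Sult6b2 and Sult5a1 each held 1 site of all 6 libraries inside the gene, with mean fed ranks of 89.3 and 80.1. Sult1c2 had a single site, inside the gene and in all 6 libraries (77.7). The Sult1b1 to Sult1e1 cluster lies next to the Ugt2 cluster on chromosome 5. There Sult1d1 had 2 sites of all 6 libraries, 1 inside the gene (76.8) and 1 beside it (75.8), and Sult1e1, the estrogen sulfotransferase, had 1 site inside the gene with fed ranks of 46.1, 22.5 and 50.7 that was not called in starved 2. Sult6b1 had a site with a mean fed rank of 62.03 that starved 1 and starved 3 called. Sult3a2 had 1 site, in fed 1 and fed 3, and Sult1b1 had 1, in fed 3 and starved 1.

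Sult2a genes, which sulfonate hydroxysteroids and bile acids, formed the sparsest of the 20 clusters with a site. Its 8 genes span 869 kb of chromosome 7 and had 4 sites near them, 0.897 per 100 kb of the gene windows searched, called 3, 2 and 4 times in the fed libraries and 2, 0 and 2 times in the starved ones. No site of all 6 libraries lay within 5 kb of any of the 8 genes. Sult2a1 and Sult2a6 had 1 site each that was called in all fed libraries and in starved 1 and starved 3 (mean fed ranks 50.02 and 43.4). Sult2a8 had 2 sites, of which fed 1 and fed 3 called one and fed 3 alone the other. The nearest site of all 6 libraries below the cluster was 335 kb away, the longest distance at any cluster edge.

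In the glutathione S-transferases the mu class (Gstm, chromosome 3) held the most sites. The fed libraries called 10, 12 and 16 and the starved libraries 5, 4 and 5, with no overlap between groups. Gstm6 alone carried 5 sites within 14.7 kb, called 5 times in each fed library and 3 times in each starved library. The 3 sites called in all 6 libraries were chr3:107939124-107939885 (mean fed rank 92.3), chr3:107943251-107944333 (80.7) and chr3:107953115-107953793 (97.3). The last covers the outer start of Gstm6 and the second the inner start printed above. Between the second and the last stood 2 fed-only sites with mean fed ranks of 35.4 and 25.9. The map of the Gstm cluster shows this order.

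Gstm1, a major mu-class transferase of mouse liver, had a site over its start (chr3:108017879-108018740) that was called in all 6 libraries. Its fed ranks were 84.0, 90.0 and 89.1 and its starved ranks 69.5, 90.6 and 92.2. This site holds the exact core match printed for Gstm1. Gstm4 had the highest-ranked fed-only site of all the conjugation genes, chr3:108032071-108032877 inside the gene, with fed ranks of 54.7, 47.3 and 72.0. Gstm2 had 1 fed-only site (chr3:107986643-107987032) with a mean fed rank of 25.7. Neither Gstm2 nor Gstm4 had a starved call within 5 kb, with 2, 1 and 3 and with 1, 2 and 3 fed calls. Gstm7 had 1 site, over its start, which starved 2 did not call (mean fed rank 57.2), Gstm3 had 1 site in fed 3 alone, and Gstm5 had none.

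The theta class (Gstt, chromosome 10) was called 7, 7 and 11 times in the fed libraries and 5, 3 and 4 times in the starved ones. Gstt2 carried its strongest site, chr10:75831973-75833086 inside the gene, with fed ranks of 92.6, 96.0 and 93.8, and Gstt4 a weaker one inside the gene (mean fed rank 62.4), both called in all 6 libraries. Gstt1 had a fed-only site inside the gene (33.4) and another that starved 1 called (33.6). Of the other 2 sites of Gstt1, both in fed 3 alone, 1 covered its outer start, while the fed-only site covered an inner start. The omega class (Gsto, chromosome 19), which reduces dehydroascorbate, gave the same counts in every library of a group, 4, 4 and 4 fed and 2, 2 and 2 starved. The site inside Gsto2, chr19:47882078-47883185, was the best-ranked of all 118, with fed ranks of 98.8, 99.97 and 96.8 and starved ranks of 90.7, 97.6 and 96.7. A second site covered the start of Gsto2 (mean fed rank 68.0) and was called in all 6 libraries, and the 2 fed-only sites had mean fed ranks of 24.1 and 23.2.

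Alpha, pi and zeta class genes overlapped between groups. The alpha-class genes Gsta4, which removes lipid aldehydes, and Gsta2 each had a site of all 6 libraries inside the gene, with mean fed ranks of 92.1 and 90.8. Gsta1 had 1 site, in fed 3 alone. Gsta3, which stands apart on chromosome 1, had 3 sites called 2, 1 and 2 times fed and once starved, and a site of all 6 libraries lay just beyond the window, 5620 bp from the gene. The pi class (Gstp, chromosome 19) was called 5, 4 and 7 times fed and 4, 3 and 4 times starved. Its best site, chr19:4051756-4052845, lay 4625 bp outside Gstp3 with fed ranks of 98.8, 93.7 and 92.6. Gstp1 had a site over its start (chr19:4037882-4038499) with fed ranks of 50.9, 44.0 and 67.6, which starved 1 and starved 3 called at ranks of 21.0 and 27.2. Gstz1, an isomerase of tyrosine breakdown, had a fed-only site over its start (chr12:87147131-87147627) with fed ranks of 22.99, 2.45 and 36.7, and 2, 1 and 5 fed calls against 2, 0 and 0 starved.

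Comparing lists cut to the 23926 best-scored peaks each gave a different order. In these lists of equal length the conjugation genes had 35, 31 and 35 sites in the fed libraries (33.7 ± 2.31, SD, n = 3) and 39, 36 and 36 in the starved libraries (37.0 ± 1.73, SD, n = 3). The direction was the reverse of that in the full lists, and the groups again did not overlap. Near all protein-coding genes the equal-length lists held 15820, 15812 and 15971 sites fed and 15919, 15516 and 15694 starved, where the groups overlapped. Of the 23 fed-only sites, 1 reached any equal-length list, that of Gstm4 in fed 3. Such sites have no starved peak, so they could enter only the fed lists. The cut left the starved 2 list whole, so all 32 sites of all 6 libraries stayed in it by construction. Of the 20 partly called sites, 12 were in a starved and 6 in a fed list of equal length. One site, that of Sult6b1, was in all 3 fed and no starved list, and none was in all 3 starved and no fed list. Fewer sites in every starved list were counted for 1 of the 40 genes with a site, Sult6b1, against 1.32% of all protein-coding genes, and more sites in every starved list for 0 of 40, against 0.612%.

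Of the 49 distinct sites in the equal-length lists, 25 were in all 6, so their ranks could be set side by side. At 3 of the 25 every starved rank was above every fed rank (12.0%), against 7.26% of the 19291 sites in all 6 equal-length lists genome-wide. All 3 lay in the Ugt2 cluster. The Ugt2b34 site (chr5:86886466-86887196) ranked at 13.1, 16.4 and 4.58 fed and at 32.3, 52.2 and 48.1 starved. At the Ugt2b5 site the fed ranks were 63.6, 40.1 and 43.0 and the starved ranks 81.2, 92.2 and 73.4. One of the Ugt2a3 sites (chr5:87333468-87334171) had 35.4, 39.1 and 16.4 fed and 40.4, 54.1 and 55.7 starved, so its lowest starved rank was barely above its highest fed rank. The other Ugt2a3 site overlapped between groups. Sites over 5 kb from the genes are not among the 25. In the span of the Ugt2 cluster, those at chr5:87311246-87311827 and chr5:87436184-87436735 overlapped between groups. Between Gstp2 and Gstp3, the site at chr19:4047690-4049013 also had every starved rank above every fed rank.

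At 1 of the 25 sites every starved rank was below every fed rank (4.00%), against 7.76% genome-wide. This was the Gsta4 site (chr9:78193165-78194519), with fed ranks of 74.0, 83.3 and 86.1 and starved ranks of 65.7, 71.0 and 63.1. The remaining 21 sites overlapped between groups, including those of Gsto2, Gstm6, Gstm1, Sult1a1, Gstp3 and Gstt2. The exact binomial 95% intervals of the 2 shares, 2.55% to 31.2% for starved above and 0.101% to 20.4% for starved below, both held the genome-wide share, and no site was tested singly.

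**Figure D4:**
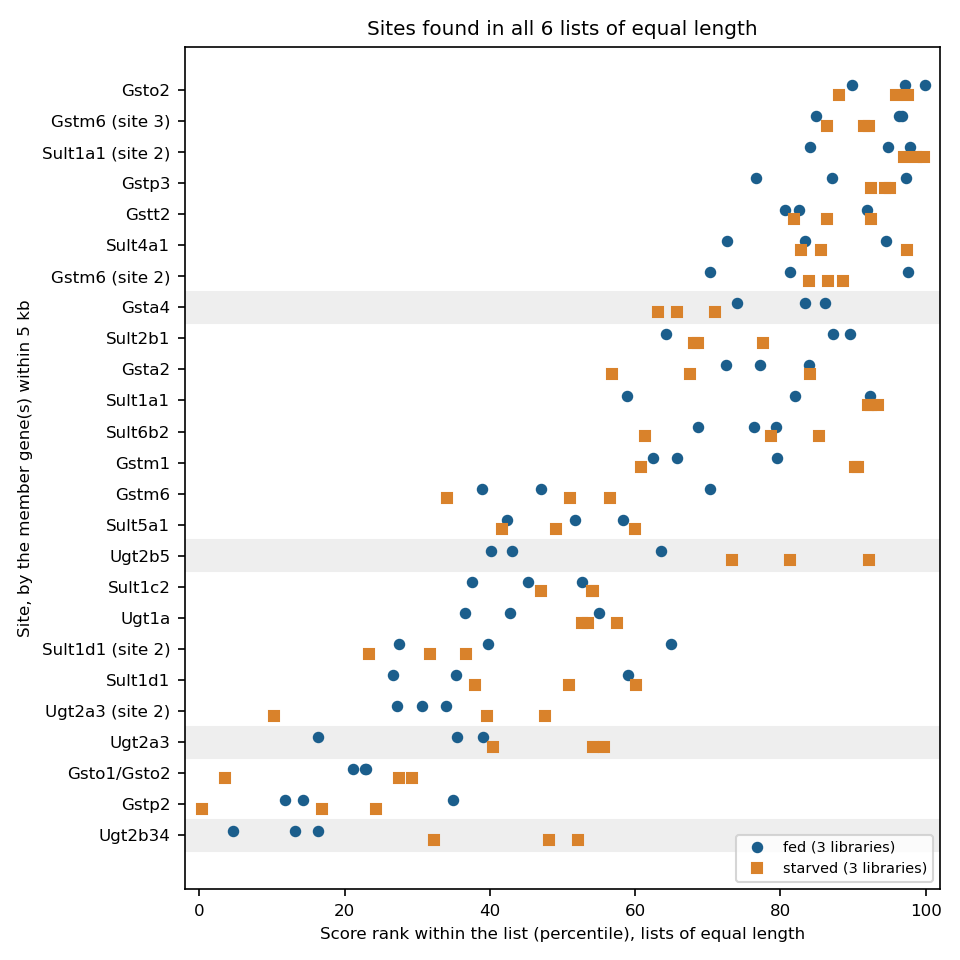
Rows are the 25 CTCF sites found in all 6 lists of equal length, named by the gene or genes they lie near and ordered by mean fed rank in these lists. The horizontal axis is the score rank within the equal-length list (percentile), with circles for the 3 fed and squares for the 3 starved libraries. Grey bands mark the 4 sites at which the groups do not overlap, with the starved ranks higher at Ugt2b34, Ugt2b5 and Ugt2a3 and lower at Gsta4.

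Beyond the outer edges of the clusters, the nearest site called in all 6 libraries lay at a median of 30.2 kb over 42 edges, with a range from 0.593 kb to 335 kb. It was within 20 kb at 17 of the 42 edges. Over the edges of all protein-coding genes the median was 41.9 kb, and 32.7% had such a site within 20 kb. At the limit of the 5 kb window around single genes, the sites of all 6 libraries just inside were those of Gstp3 (4625 bp away) and Sult1a1 (4485 bp), and those just outside were near Gstp2 (5469 bp), Gsta3 (5620 bp) and Sult6b2 (5978 bp). A site in fed 3 alone lay 4666 bp from Ugt1a2, inside the bodies of other Ugt1a genes.

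Conjugation also needs co-substrates, regulators and export pumps, and 4 further gene lists covered these. Over all protein-coding genes, 74.5% had a site and 47.7% a site of all 6 libraries. Of the 12 cofactor genes, all had a site, 7 had a site of all 6 libraries and 7 had fewer sites in every starved library. Papss2, which makes the sulfonate donor, was called 6, 7 and 8 times fed and 2, 1 and 2 times starved. Gclc, the catalytic subunit of glutathione synthesis, had 4, 4 and 7 fed and 3, 3 and 3 starved calls. Ugdh, which makes the glucuronic acid donor, had none in starved libraries and 0, 1 and 5 in fed ones.

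All 10 regulators had a site, 8 with a site of all 6 libraries, and 6 had fewer sites in every starved library. Nfe2l2, the activator of the antioxidant response, was called 6, 4 and 10 times fed and 1, 0 and 0 times starved, whereas its inhibitor Keap1 had 4, 4 and 4 fed and 2, 1 and 2 starved calls, with a site at a mean fed rank of 99.1. Nr1i3, the receptor CAR, overlapped between groups with 2, 2 and 3 fed and 2, 2 and 2 starved calls. Of the export and deconjugation list, 9 of 10 genes were found in the annotation (Sts was not). All 9 had a site, 8 had a site of all 6 libraries and 6 had fewer sites in every starved library, among them the canalicular pump Abcc2 with 2, 2 and 2 fed and 1, 1 and 1 starved calls.

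Of the 15 genes for other conjugating and detoxifying enzymes, 12 had a site, 11 had a site of all 6 libraries and 3 had fewer sites in every starved library, such as the epoxide hydrolase Ephx1 with 6, 5 and 9 fed and 4, 3 and 3 starved calls. Nqo1 and Hpgds each had a single site, called in all 6 libraries. Ugt8a, Nat1 and Nat2 had none. No gene of the 4 lists had more sites in every starved library. Fewer sites in every starved library were found for 45.4% of all protein-coding genes with a site, and the lists were not tested.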

How the data were processed

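The analysis used 6 deposited peak lists, 1 for each CTCF ChIP library. The 6 input libraries were not analysed here. Each list gives chromosome, start, end, name and a score per peak, which the authors deposited per library and not pooled. What the score measures was not given in the sources used here. Per the submitters' processing notes the build was mm10 and the tools named are MACS2, BWA 0.7.5a, bedtools 2.17, SAMtools, HOMER and FastQC, without their roles. Read depth is unknown.

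Sites were built by joining peaks with an overlap of 1 bp or more, using Python 3.11.15, pandas 2.3.3, numpy 2.4.6 and scipy 1.17.1. Coordinates count from 1. Groups and replicate numbers came from the sample titles. The code was tested on simulated data. Alternatives were a stricter score limit, trimmed or joined peaks, equal list length, other windows and cluster gaps, and each library left out. The genes, lists and tests were chosen with earlier results of these data known. Genes named with values were the best-ranked up to 6 per family, those with fed-only sites or with a site of all 6 libraries in the body, and fixed examples such as Ugt1a1, Sult1a1 and Gstm1. Same-numbered libraries were not treated as pairs. The values of 1 listed gene are not reported here.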

Additional observations from a re-analysis of the deposited data

How the results depend on the processing

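The lower count of starved sites was not seen in lists of equal length. The starved minus fed difference of -49.7 sites per library was -26.3 under the stricter score limit (scores of at least 30.4, the median over the lists), -71.0 with 20 kb windows and reversed to 3.33 in lists of equal length. With the replicate block, that is pairing same-numbered libraries, it was -49.7, with fewer starved sites in 3 of 3 pairs. Rank deviations from the group mean, over 22131 sites of all 6 libraries, correlated at -0.0105, 0.0944 and 0.0630 between same-numbered libraries. Between differently numbered libraries they correlated at -0.128 to 0.0912. These values cannot show whether same-numbered libraries shared a batch. Sites of all 6 libraries numbered 32, against 14 under the stricter limit and 55 with 20 kb windows. Fed-only sites numbered 23, against 14 under the stricter limit, 1 in equal-length lists and 36 when 2 of 3 fed libraries sufficed. Genes with fewer sites in every starved library numbered 7418 of all protein-coding genes, against 157 in equal-length lists. The median of 5 sites per cluster became 2 under the stricter limit and in equal-length lists, 3 with gene bodies alone and 2.5 when clusters were joined at 50 kb. Sites inside gene bodies, 81, became 40 under the stricter limit and 36 in equal-length lists. With each library left out in turn the ranges were -57.2 to -38.7 for the difference, 32 to 42 sites of all 6 libraries, 23 to 32 fed-only sites, 47 to 50 genes with a site, 7478 to 9782 genes with fewer starved sites, a median of 4 to 5 sites per cluster and 68 to 82 sites in gene bodies. The cause of these changes was not tested. List length and window size set how many peaks enter. Cutting all lists to the same length makes their totals equal whatever made the starved lists shorter, so it cannot test a cause. Depth is unknown, so a missing call does not show that CTCF was absent.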
